A study of Mus musculus with 6 samples.

Results

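The immunity-related GTPases are a family of interferon-inducible proteins of the mouse, and 7 of the 52550 genes in the deposited RNA-seq table belong to the set described here: Irgm1, Irgm2, Igtp, Iigp1, Ifi47, Tgtp1 and Tgtp2. The 7 genes were chosen by symbol, and they were selected on earlier values of the same comparison of genotypes, so their difference between genotypes is given as a description without a test. All 7 were in the table and all 7 passed the filter on low counts, with between 432 and 12753 counts per gene and library. The libraries were made from macrophages of C57BL/6 mice, 3 from MSR1 KO and 3 from MSR1 WT mice, MSR1 being macrophage scavenger receptor 1. Bone marrow cells of both genotypes had been grown with 25 ng/ml M-CSF for 7 days and then shared medium with bone marrow mesenchymal stromal cells (BMSCs) across a transwell membrane for 48 h. No library of macrophages kept without BMSCs was analysed here, and the labels do not say whether the replicates came from separate animals, so p-values measure the spread between these libraries.

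Total counts per library ranged from 36143518 to 47417448. Msr1 itself was lower in the MSR1 KO libraries, with a log2 fold change of -2.02 (standard error, SE, 0.14, adjusted p = 0.0012 by edgeR's quasi-likelihood test), but 1825 to 2118 reads per library remained on the gene. Of the 10 macrophage markers, each was tested and 0 were differentially expressed, and their summed level was 23612 to 24733 CPM (counts scaled to a common library size) in MSR1 KO and 24376 to 26846 CPM in MSR1 WT libraries. Stromal cell markers summed to 1400 to 1903 CPM and 1883 to 2330 CPM, respectively. RNA from bulk cultures cannot tell fewer cells of a type apart from less RNA per cell.

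Immunity-related GTPases defend mouse cells against intracellular parasites and bacteria that live in vacuoles. Effector members (the GKS class, named after a lysine in the nucleotide-binding loop) gather on the vacuole membrane and break it open, whereas regulator members (the GMS class, with methionine in that place) sit on the membranes of the cell's own organelles and keep the effectors inactive there. Interferon-gamma is the classical inducer of the family in macrophages, acting at GAS elements and, through IRF1, at ISRE elements, and type I interferon can act through ISRE elements as well.

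The codon that separates the classes is shown first, because it sorts the members independently of their expression. In the GENCODE M21 transcripts (GRCm38), a stretch of 8 codons of the nucleotide-binding loop was found in each member, and in the last exon of the 6 whose bases are shown, with the class codon in capitals. Iigp1 carried the lysine codon as codon 82, and its bases are not shown.
Irgm1 (chr11:48866761-48866784, minus strand): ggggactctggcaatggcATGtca
Irgm2 (chr11:58219695-58219718, plus strand): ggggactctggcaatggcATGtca
Igtp (chr11:58206275-58206298, plus strand): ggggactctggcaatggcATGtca
Ifi47 (chr11:49095648-49095671, plus strand): gggcagtctgggactggcAAGtcc
Tgtp1 (chr11:48987667-48987690, minus strand): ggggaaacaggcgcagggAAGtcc
Tgtp2 (chr11:49059534-49059557, minus strand): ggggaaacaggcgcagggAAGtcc
The 3 regulators had the same 24 bases, with methionine at codon 89 of Irgm1 and Irgm2 and at codon 97 of Igtp. The effectors had lysine at codon 87 of Ifi47 and at codon 69 of Tgtp1 and Tgtp2. Over the whole coding sequence, the regulators were 66.9% to 70.9% identical to one another and 57.0% to 58.7% identical to the effectors. Tgtp1 and Tgtp2 stood apart with 99.7% identity (1241 of 1245 bases), while other pairs of effectors reached 60.5% to 62.9%.

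Promoters were searched for interferon elements in RefSeq windows of 300 bases (GRCm38.p6), from 250 bases before to 50 bases after the annotated start. Entries were found for 6 of the 7 members, and Iigp1 was not matched. The ISRE core (GAAANNGAA) and the GAS core (TTCNNNGAA) were sought on both strands. An ISRE core was found in 5 of the 6 promoters and a GAS core in 4, against 8.56% and 8.3% of all 32851 promoters in the table. Both occurred together in 4 of the 6 and in 1.07% of all promoters.

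The stretches that hold these elements are given below in the direction of transcription, with matches in capitals.
Irgm1 (chr11:48871426-48871460, minus strand): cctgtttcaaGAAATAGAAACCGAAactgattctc
Irgm2 (chr11:58214892-58214931, plus strand): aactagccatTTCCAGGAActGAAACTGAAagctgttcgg
Igtp (chr11:58199501-58199540, plus strand): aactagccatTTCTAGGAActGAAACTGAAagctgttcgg
Tgtp1 (chr11:48992305-48992344, minus strand): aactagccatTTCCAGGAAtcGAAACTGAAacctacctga
Tgtp2 (chr11:49064264-49064303, minus strand): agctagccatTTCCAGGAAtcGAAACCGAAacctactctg
In Irgm2, Igtp, Tgtp1 and Tgtp2 the GAS core began 11 bases before the ISRE core, with 2 bases between them. This spacing was noticed in the members and then counted: 8 of the 32851 promoters (0.0244%) had it, the other 4 being those of Gm12185, another immunity-related GTPase, and of Adar, Olfr382 and LOC115488470. The 4 stretches are near-copies, since Igtp and Irgm2 shared 39 of 40 bases, Tgtp1 and Tgtp2 shared 34, and pairs across these genes shared 31 or 32, so the 4 matches are not 4 independent ones. Irgm1 had a pair of overlapping ISRE cores and no GAS core. Ifi47 held neither motif in this window, which says only that these letters were not in it.

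**Figure D1:**
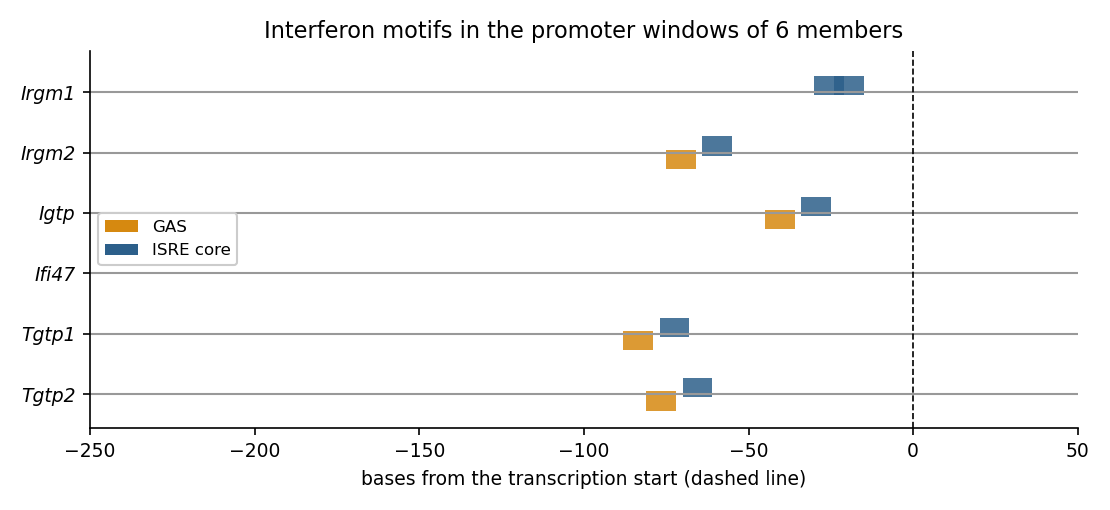
Positions of the GAS core (orange) and the ISRE core (blue) in bases from the annotated transcription start (dashed line) for the 6 members with a promoter entry. In 4 members the GAS core starts 11 bases before the ISRE core, Irgm1 has ISRE cores alone and Ifi47 has neither.

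All 7 members were higher in every MSR1 KO library than in any MSR1 WT library. Over all 16402 tested genes, 12.1% had every MSR1 KO library above every MSR1 WT library. Their fitted log2 fold changes ran from 1.11 to 2.37 with a median of 1.5, against a median of -0.002 over all tested genes. The study defined a differentially expressed gene (DEG) by a fold change above 1.5 with an unadjusted p under 0.05. All 7 members carried this label, but they were chosen on this contrast, so the label is no test of them. Of all tested genes, 3.59% met the definition in the same direction and 5.05% in the other. Since this contrast chose the members, nothing is read from those shares.

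Among the regulators, Irgm1 (ENSMUSG00000046879.7, chromosome 11 from 48861968 to 48871683), which acts at the Golgi and on phagosomes, had the smallest difference of the 7 members. It reached 279, 320 and 193 CPM in MSR1 KO libraries, compared with 105, 102 and 159 CPM in MSR1 WT libraries. The groups came closest here, since the lowest MSR1 KO library was 1.22 times the highest MSR1 WT library. The log2 fold change of Irgm1 was 1.11 (SE 0.22).

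Irgm2 (ENSMUSG00000069874.7, chromosome 11 from 58199618 to 58222782), a regulator found at the Golgi, had 222, 265 and 156 CPM in MSR1 KO and 79.6, 73.1 and 107 CPM in MSR1 WT libraries. Its log2 fold change was 1.31 (SE 0.21). Igtp (ENSMUSG00000078853.8, chromosome 11 from 58199556 to 58207591), the regulator of the endoplasmic reticulum also known as Irgm3, had 118, 134 and 64.4 CPM against 33, 29.2 and 49.7 CPM. With a log2 fold change of 1.5 (SE 0.29) it was the regulator with the largest difference, although the intervals of 1 standard error around the 3 regulators overlapped. Irgm2 and Igtp share 162 exon bases on the same strand, which are 4.39% and 8.01% of their exon bases, so a small part of their reads could have been assigned to either gene.

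Among the effectors, Iigp1 (ENSMUSG00000054072.11, chromosome 18 from 60376029 to 60392627), whose protein Irga6 is a well-studied vacuole-loaded member, had the largest difference of all 7. In the MSR1 KO libraries it reached 231, 307 and 95.7 CPM, against 37.7, 24.7 and 59.8 CPM in the MSR1 WT libraries. Both genotypes were spread widely, with replicate 2 at the top of the MSR1 KO libraries and at the bottom of the MSR1 WT libraries. The log2 fold change was 2.37 (SE 0.45), a fitted fold of 5.19. No stretch of 100 bases of its transcripts occurred in transcripts of another gene.

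Ifi47 (ENSMUSG00000078920.3, chromosome 11 from 49076587 to 49096974), which encodes Irgd, had 148, 173 and 110 CPM in MSR1 KO and 51.8, 37.1 and 74.9 CPM in MSR1 WT libraries. Its log2 fold change of 1.39 (SE 0.26) lay among those of the regulators. It shares 111 exon bases with Olfr56 on the same strand and 106 with the pseudogene Gm12188 on the other strand.

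Tgtp1 (ENSMUSG00000078922.9, chromosome 11 from 48985327 to 48994172) and Tgtp2 (ENSMUSG00000078921.3, chromosome 11 from 49057194 to 49064206) both encode Irgb6, an effector that reaches parasite vacuoles early. Tgtp1 had 54.6, 81.2 and 28.8 CPM in MSR1 KO against 13, 9.11 and 19.1 CPM in MSR1 WT libraries. The values of Tgtp2 were 188, 262 and 91.1 CPM against 44.7, 31.7 and 63.5 CPM. Their log2 fold changes were 2.00 (SE 0.39) and 1.95 (SE 0.38), and 1.96 when the counts of both genes were summed. Of the stretches of 100 bases in Tgtp1 transcripts, 70.28% also occur in Tgtp2, and 76.79% of those in Tgtp2 occur in Tgtp1, so the split of reads between the pair is uncertain. In the counts it was nearly constant, with 0.287 to 0.317 Tgtp1 reads for each Tgtp2 read.

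**Figure D2:**
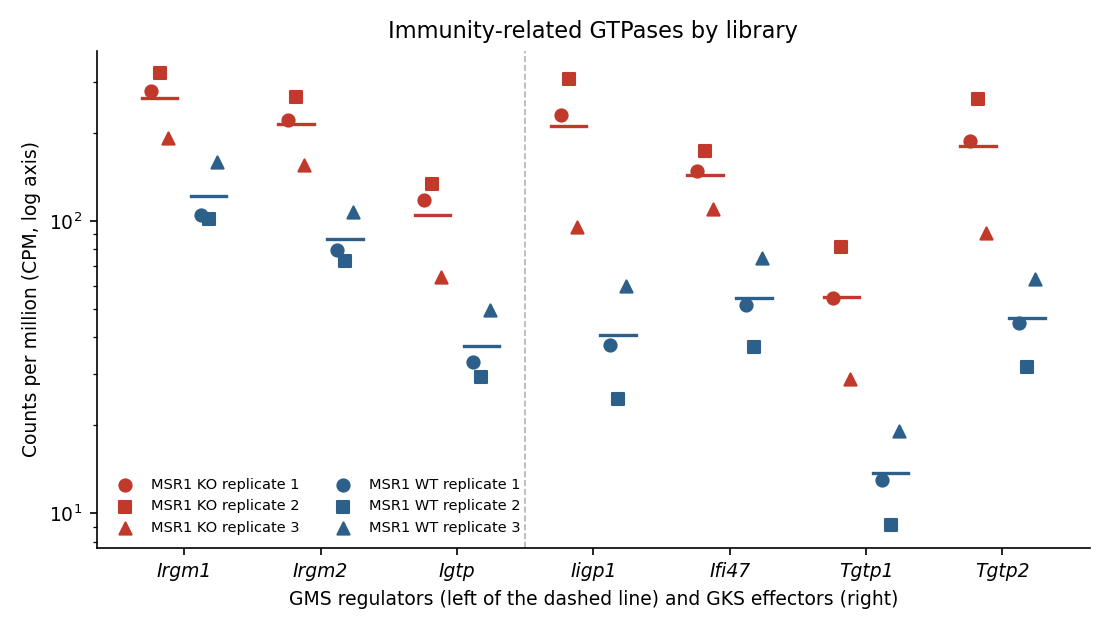
CPM of the 7 members on a log axis in each of the 3 MSR1 KO (red) and 3 MSR1 WT (blue) libraries, with marker shape for the replicate number and a bar for the group mean. For every member the red points lie above the blue points, MSR1 KO replicate 3 (triangle) is the lowest red point and MSR1 WT replicate 3 the highest blue point.

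Levels of different genes were compared after division by the exon length in kb. In MSR1 WT libraries the order was Irgm2 (23.5 ± 4.94 CPM per kb, SD, n = 3), Ifi47 (22.1 ± 7.71), Irgm1 (21 ± 5.48), Igtp (18.4 ± 5.41), Tgtp2 (15.9 ± 5.44), Iigp1 (6.99 ± 3.05) and Tgtp1 (4.29 ± 1.58). The step from Tgtp2 to Iigp1 was the single step between neighbours in this order that exceeded the larger SD of the pair. In MSR1 KO libraries the order was Tgtp2 (61.5 ± 29.2 CPM per kb, SD, n = 3), Irgm2 (58.1 ± 14.9), Ifi47 (58.1 ± 12.9), Igtp (52.0 ± 17.9), Irgm1 (45.5 ± 11.2), Iigp1 (36.2 ± 18.3) and Tgtp1 (17.1 ± 8.16). Here the step from Iigp1 to Tgtp1 was the one that did. The order within each genotype thus resolved few members from their neighbours, and the placement of Tgtp1 and Tgtp2 depends on how their common reads were split.

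The balance of effectors to regulators differed between the libraries. The summed level of the 4 effectors per kb was 1.08, 1.23 and 0.939 times that of the 3 regulators in the MSR1 KO libraries and 0.834, 0.635 and 0.841 times in the MSR1 WT libraries. Iigp1 supplied 7.89% to 12.2% of the family's summed level per kb in MSR1 KO and 5% to 6.88% in MSR1 WT libraries. Irgm1 supplied 12.8% to 16.0% and 17.7% to 20.8%, respectively. These shares follow from the fold changes that chose the members and were not tested.

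The spread among libraries of one genotype was not used to choose the members. In all 7, the MSR1 KO libraries were ordered replicate 2, replicate 1, replicate 3 from high to low, and the MSR1 WT libraries were ordered replicate 3, replicate 1, replicate 2. Of the 13611 tested genes with a mean of at least 1 CPM, 18.5% had the first order, 17.7% the second and 3.95% both. The highest MSR1 KO library exceeded the lowest 1.58-fold (Ifi47) to 3.20-fold (Iigp1), against a median of 1.22-fold over these genes. A ratio at least as large as that of Iigp1 occurred in 1.45% of them, and one at least as large as that of Ifi47 in 15.4%. Among MSR1 WT libraries the ratio ran from 1.47 (Irgm2) to 2.43 (Iigp1), against a median of 1.19. The 7 genes share libraries and inducers, so their equal order is not 7 separate observations.

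Targets that lean to interferon-gamma and targets that lean to type I interferon were compared with the members library by library, as medians of log2 CPM centred on each gene's mean over 6 libraries. From MSR1 KO replicate 2 to MSR1 KO replicate 3 the median dropped by 0.99 for the members and by 1.04 for 29 interferon-gamma-leaning targets. The median over 32 type I-leaning targets dropped by 0.02. MSR1 KO replicate 3 was the lowest MSR1 KO library for 28 of the 29 interferon-gamma-leaning targets and for 14 of the 32 type I-leaning ones. The MSR1 WT libraries did not separate the lists in this way, since replicate 3 was the highest MSR1 WT library for 27 of the 29 and for all 32. With 3 libraries a genotype, these within-genotype patterns allowed no test.

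**Figure D3:**
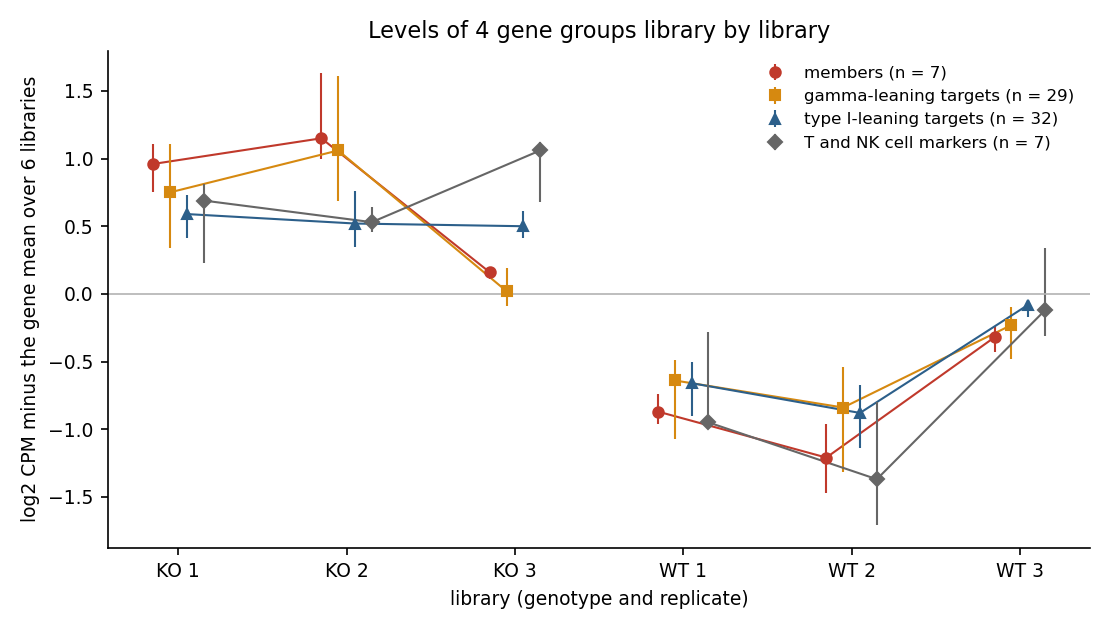
Median over genes (points) and interquartile range (bars) of log2 CPM minus the gene's mean over 6 libraries, for the members, interferon-gamma-leaning targets, type I-leaning targets and T and NK cell markers in each library. The members and the interferon-gamma-leaning targets step down at KO 3, the type I-leaning targets stay level across the MSR1 KO libraries and the T and NK cell markers are highest at KO 3.

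Most other GTPases of the superfamily were also higher in MSR1 KO libraries. Of 13 listed genes, 11 were tested and 8 were higher DEGs, none lower, with a median log2 fold change of 1.12 (edgeR's quasi-likelihood test). At an adjusted p under 0.05, which 2.25% of all tested genes reached in the higher direction and 2.66% in the lower, 6 were higher. This list was chosen with earlier results of these data known, so its counts are a description and no independent test. Gm12250, which encodes the effector Irgb10, rose from 15.3, 15.7 and 28.0 to 50.4, 66.1 and 38.4 CPM (log2 fold change 1.39, SE 0.27, adjusted p = 0.030 by edgeR). Of the genes in the Tgtp cluster of chromosome 11, Gm12185 rose by 1.12 and Gm5431 by 1.13, the latter with an adjusted p of 0.15 by edgeR. Beside Iigp1 on chromosome 18, Gm4951 had a log2 fold change of 1.41 and F830016B08Rik one of 0.97. The groups of F830016B08Rik overlapped, and its adjusted p was 0.087 by edgeR.

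The giant GTPases Gvin1, Gm4070 and Gm8995 rose by 1.37, 1.38 and 1.05 on the log2 scale, and as close copies they may share reads. 9930111J21Rik1 and 9930111J21Rik2 had log2 fold changes of 0.45 and 0.33 with overlapping groups and were not DEGs. Irgq, a family member that lacks the usual nucleotide-binding motifs, was the single gene of the list with a negative value, at -0.18. Irgc1, a testis-expressed member, had 5 counts in each of 2 MSR1 WT libraries and 0 in the remaining libraries. Gm17757 was not matched in the table.

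Transcripts of the interferons themselves were near the limit of detection. Of 10 listed ligands, 7 had 0 counts in every library, and 3 counts, the number that a count of 0 allows, correspond to 0.0633 to 0.083 CPM. These limits cover counting error only. Ifng had 4 counts in MSR1 WT replicate 1 and 0 elsewhere. Ifnb1 had 8 and 6 counts in MSR1 KO replicates 1 and 2, 4 counts in MSR1 WT replicate 3 and 0 in the rest. Ifne had 3 counts in MSR1 KO replicate 1. The 7 at 0 were Ifna1, Ifna2, Ifna4, Ifna5, Ifnk, Ifnl2 and Ifnl3. At this depth no difference in ligand transcripts was detectable, and ligand made by the BMSCs was not measured in these libraries.

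Receptor transcripts were abundant and differed little. Ifngr1, the ligand-binding chain for interferon-gamma, had a log2 fold change of 0.17 (SE 0.09), and Ifngr2, its signalling partner, one of 0.08 (SE 0.07). The type I receptor chains Ifnar1 and Ifnar2 stood at -0.09 (SE 0.06) and 0.24 (SE 0.06). None of the 4 was a DEG, and none had an adjusted p under 0.05 by edgeR's quasi-likelihood test.

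Of 19 tested receptor and signalling genes, the 4 receptor chains included, 5 were higher DEGs and 0 were lower. Stat2, a subunit of the complex that binds ISRE elements, rose by 1.27 (SE 0.20, adjusted p = 0.019 by edgeR). Irf1, the factor that links interferon-gamma to ISRE elements, had 149, 198 and 88.3 CPM against 64.4, 87.5 and 62.8 CPM. Irf1 met the DEG definition at a log2 fold change of 1.02 but had an adjusted p of 0.073 by edgeR, and its lowest MSR1 KO library lay barely above its highest MSR1 WT library. Irf9, the DNA-binding subunit of that complex, had a log2 fold change of 0.48, below the fold of the DEG definition, with an adjusted p of 0.035 by edgeR. The inhibitors Socs1 and Usp18 rose by 1.36 and 1.08, with adjusted p-values of 0.045 and 0.063 by edgeR.

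Of 32 tested interferon-gamma-leaning targets, 21 were higher DEGs and 0 were lower, with a median log2 fold change of 1.12, and 16 had an adjusted p under 0.05 in edgeR's quasi-likelihood test. The largest value was that of Gbp4 at 3.13, a guanylate-binding protein of the family that works beside the immunity-related GTPases on vacuoles. Gbp2 followed at 3.04 with 260, 598 and 67.6 CPM in MSR1 KO and 37.0, 34.3 and 41.4 CPM in MSR1 WT libraries, with MSR1 KO replicate 2 far above the other libraries. Il12rb1, a chain of the interleukin-12 receptor, rose by 2.5, Gbp8 by 2.43 and Fgl2, a secreted fibrinogen-like protein, by 2.18. The interferon-gamma-leaning list was not uniform. Ciita (0.57), Cd74 (0.37), H2-Aa (0.40), H2-Ab1 (0.46), H2-Eb1 (0.40), Cxcl9 (1.61) and Nos2 (0.77) had overlapping groups and were not DEGs. Ido1 had 0 counts in every library and was not tested. These genes were picked after their values had been seen. All 32 type I-leaning targets were higher DEGs, with log2 fold changes of 0.63 to 1.80, a median of 1.02 and 28 at an adjusted p under 0.05 in edgeR. Their largest values were those of Ifi44 (1.80), the nucleic acid sensor Zbp1 (1.63), Ifit2, Ifit3 and Rsad2 (1.54 each). Ifit2 and Ifit3 bind viral RNA and Rsad2 encodes viperin. All gene lists were chosen with earlier results of these data known. Their DEG counts and p-values on this contrast thus describe the lists and are not independent tests.

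Autophagy-type genes, among them the ubiquitin-like conjugation enzymes that help to place the effectors on vacuoles and cargo adaptors such as Nbr1, had a median log2 fold change of 0.03. Of 19 tested genes, 1 (5.26%) was a higher DEG, against 3.59% of all tested genes, and 0 were lower. That gene was Trim21, a ubiquitin ligase and itself an interferon target, at 0.64 (SE 0.11, adjusted p = 0.023 by edgeR). Leaving out MSR1 KO replicate 2, or MSR1 WT replicate 2, took Trim21 below the definition. Gabarapl1, one of the conjugated proteins, had a log2 fold change of -0.36, Nbr1 one of 0.22, Atg10 one of 0.18 and Map1lc3b one of -0.13, and none of these was a DEG.

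**Figure D4:**
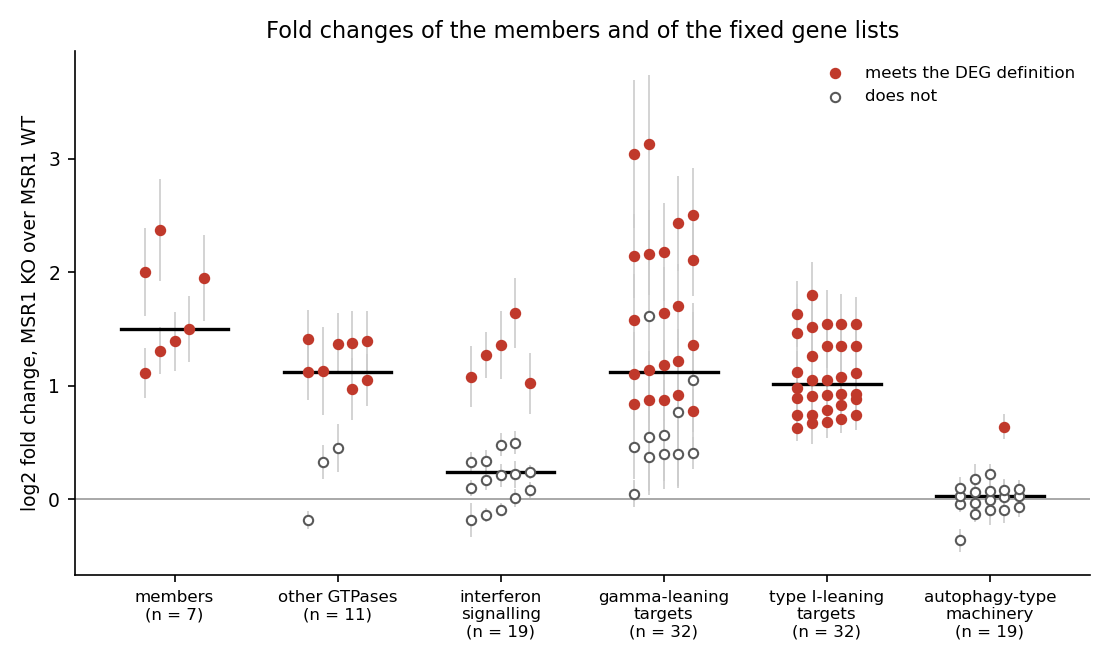
Fitted log2 fold change of MSR1 KO over MSR1 WT with its standard error for each member and each tested gene of 5 lists, with list medians as black bars. Filled points meet the DEG definition. All 7 members do, but they were chosen on this contrast, so their count is not compared with those of the lists. In the lists, all 32 type I-leaning targets and 21 of 32 interferon-gamma-leaning targets meet it. So do 8 of 11 other GTPases, 5 of 19 receptor and signalling genes and 1 of 19 autophagy-type genes. The lists were chosen with earlier results of these data known.

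T and NK cells are makers of interferon-gamma, so their markers stand beside these results. Of 14 such markers, 10 were tested, 4 were higher DEGs (Gzmb, Gzma, Klrb1c and Tbx21) and 0 were lower, and 3 had an adjusted p under 0.05 by edgeR. Gzmb, a cytotoxic granule protease, had 24.8, 26.0 and 34 CPM in MSR1 KO and 6.89, 4.51 and 11.4 CPM in MSR1 WT libraries. The summed level of the list was 165, 143 and 200 CPM in MSR1 KO and 145, 103 and 169 CPM in MSR1 WT libraries. Without Cd4, the most abundant marker, it was 50.6 to 66.6 CPM and 12.8 to 32.9 CPM. This sum was highest in MSR1 KO replicate 3, where the members were lowest among the MSR1 KO libraries, whereas the MSR1 WT libraries had the members' order of replicate 3, replicate 1, replicate 2. Of the 7 markers with a mean of at least 1 CPM, 0 had the members' order of MSR1 KO libraries and 5 had their order of MSR1 WT libraries.

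The CD3 chains that define T cells had few reads, with 0 to 9 counts of Cd3e, 0 to 19 of Cd3d and 6 to 29 of Cd3g per library. NK cell markers were detected in every library, with 105 to 410 counts of Klrb1c, 39 to 346 of Nkg7 and 74 to 284 of Ncr1. Klrb1c rose by 1.39 on the log2 scale, while Nkg7 at 1.25 and Ncr1 at 0.71 were not DEGs. The CD3 chains and Ncr1 were picked after their values had been seen. The part of these cells in the levels of the members was not tested.

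Among tested genes within 250 kb of a member that were on neither GTPase list, 4 of 27 were higher DEGs and 0 were lower, and the median log2 fold change was 0.15. One of the 4 was Olfr56, which overlaps Ifi47 and had a log2 fold change of 1.79 (SE 0.42, adjusted p = 0.051 by edgeR), so its reads may belong to Ifi47. The other 3 lie beside Iigp1: the processed pseudogenes BC023105 and Gm5970 with log2 fold changes of 2.77 and 1.49, and the protein-coding Gm4841 with 2.56 from at most 52 counts in a library. BC023105 alone had an adjusted p under 0.05 (0.014 by edgeR). Their relation to the family was not examined. The remaining 23 neighbours, such as Dctn4 at 0.15 and Rack1 at 0.01, were not DEGs; both were picked after their values had been seen.

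The 10 genes nearest to the mean profile of the members over the 6 libraries were found by the root mean square difference in centred log2 CPM. Among them were the pseudogene Gm1966 (0.075), Gbp9 (0.095), Zbp1 (0.096), Gm12216 (0.137), Gm4070 (0.147), Gvin1 (0.15), Gm4951 (0.154), the pseudogene Gm18853 (0.160) and the death ligand gene Tnfsf10 (0.172). The members themselves lay at 0.107 (Igtp) to 0.396 (Iigp1) from their mean, and 94 other genes were nearer to it than Iigp1.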

How the data were processed

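Macrophage RNA was measured by RNA-seq in 3 libraries per genotype (MSR1 KO and MSR1 WT). The authors deposited raw counts per gene and library, a signal column per library (the count divided by a size factor), and their own log2 fold changes and p-values with adjusted p-values, which were not used here. The paper's methods name TopHat for alignment, whereas the submitters' processing notes name fastp 0.17.1, HISAT2 2.1.0 and DESeq2 1.18.1. The counting program, strand setting and build were not given in the sources used here. Of 52550 gene identifiers, 49909 had the same start and end in GENCODE M21, so positions are given on GRCm38. No value column lacked a sample (0).

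After a filter on low counts (filterByExpr) and TMM normalization, counts were compared by the quasi-likelihood test of edgeR 4.0.16 (R 4.3.3), with Benjamini-Hochberg adjustment over 16402 genes. The standard error was obtained by dividing each log2 fold change by the root of its F statistic. Total counts were 36143518 to 47417448 per library. The test was checked on simulated counts. The members and all gene lists were chosen with earlier results of these data known. Named genes were the members, the other GTPases, the ligands, the receptors, Stat2, Irf1, Irf9, up to 5 largest changes per remaining list (mean of at least 1 CPM), the 10 nearest profiles, DEGs beside members and Msr1; 1 further gene of this rule is not reported here. Alternatives were other normalizations, filters, DESeq2 1.42.0, a replicate block, each library left out, Tgtp1 and Tgtp2 summed, adjusted p-values and a 1 Mb window. Promoters came from RefSeq.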

Additional observations from a re-analysis of the deposited data

How the results depend on the processing

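The 7 members met the DEG definition under each of the 12 alternatives run for that count. These were other normalizations and filters, the Wald test of DESeq2, the replicate block and each library left out. The members were chosen on this same contrast, so that count gives no support. Over the same 12 alternatives, 540 to 754 of all tested genes were higher DEGs. The median log2 fold change of the members was 1.29 to 1.76, also with Tgtp1 and Tgtp2 summed. Without 1 library, that of Iigp1 ranged from 2.00 to 2.76 and that of Irgm1 from 0.95 to 1.35. Higher DEGs ranged from 8 to 9 among the other GTPases and 5 to 6 among receptor and signalling genes. They ranged from 20 to 25 among interferon-gamma-leaning and 28 to 32 among type I-leaning targets. With an adjusted p under 0.05 in place of the DEG definition, the higher genes numbered 6, 5, 16 and 28, respectively. The higher DEG of the autophagy-type list was lost without MSR1 KO replicate 2 and without MSR1 WT replicate 2 (0 to 1 over the libraries left out). Neighbours gave 3 to 5 DEGs. Same-numbered libraries did not deviate together (correlations -0.0261, 0.0187 and -0.0048), so the numbers were not read as pairs; with a replicate block the median of the members was 1.48, and 582 genes were higher and 759 lower DEGs, against 589 and 828. The order of MSR1 KO libraries held for 7 members under DESeq2 size factors and under library size alone, both added after the data had been seen, with a median ratio of highest to lowest of 2.09 and 2.1. With 3 libraries a genotype, outlying libraries were not tested.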

Other observations

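Markers of further cell types were measured beside the members. Of 10 stromal cell markers, 1 was a higher DEG (Thy1, log2 fold change 1.31) and 3 were lower DEGs: Pdgfra at -1.19, Pdgfrb at -0.87 and Col3a1 at -0.65. Col1a2 stood at -0.39 and was not a DEG. Of 10 neutrophil markers, 1 was a higher DEG, Retnlg at 0.99, and their summed level was 690 to 1113 CPM in MSR1 KO and 463 to 856 CPM in MSR1 WT libraries. B cell markers summed to 187 to 253 CPM and 127 to 166 CPM, nearly all of it from Ighm, a higher DEG at 0.64, while Cd79b was not a DEG at 0.27. Of 7 tested dendritic cell markers, 3 were higher DEGs; Bst2 at 0.74, also an interferon target, carried nearly all of their summed level, which without it was 3.74 to 4.56 CPM and 1.87 to 3.66 CPM. The part of these cells in the levels of the members was not tested.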
